A study of Mus musculus with 6 samples.

Results

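The transcriptome of the dental pulp of control mice was described by itself, from the 3 arrays labelled control among the 6 arrays of the series. These mice were Ring1a-/-;Ring1b flox/flox ;CreERT2, so every one of them lacked Ring1a and carried a floxed Ring1b with an inducible Cre recombinase. They received corn oil on postnatal days 9 and 13, and pulp was taken on day 17. The sample labels name the tissue as mouse dental pulp, and the series title names the incisor. The other 3 arrays came from mice that received 4-hydroxytamoxifen, and no value of theirs is used below. The promoter that drives the Cre, the sex of the mice and whether animals were pooled are not given in the labels, and no wild-type pulp is used here. What follows is therefore the level of each transcript in Ring1a-null pulp, with the spread over 3 arrays labelled as biological replicates, and no group is tested against another.

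The pulp is the soft connective tissue inside the tooth. Its outer layer is made of odontoblasts, tall secretory cells that deposit the collagen of dentin and the phosphoproteins that mineralise it, and its core holds fibroblasts, vessels, nerves and macrophages. The mouse incisor grows throughout life: mesenchymal stem cells near its open end feed a pool of dividing cells that become odontoblasts. On the outer face of that mesenchyme lies a dental epithelium that makes the ameloblasts, the cells that secrete enamel proteins and that are separated from the odontoblasts only by the forming matrix. Ring1a and Ring1b, encoded by Ring1 and Rnf2, are the ubiquitin ligases of Polycomb repressive complex 1, which keeps developmental genes such as the Hox clusters silent.

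Expression was read as the MAS5 signal of each Affymetrix probe set, an intensity that the authors had scaled to a trimmed mean of 500 on every array, and as a detection call of Present, Marginal or Absent. Of 45101 probe sets, those with exactly 1 gene symbol named 18193 genes. Each gene is given as log2 signal of the probe set with the most Present calls and, among these, the highest mean. A gene called Present on all 3 arrays is called detected here, and percentiles are ranks among detected genes. Probe sets bind with different strength, so the ranks order signals and not numbers of transcripts: among 4766 genes with several detected probe sets the highest and lowest differed by a median of 1.87 log2 units.

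Replicate 1 stood apart from the other arrays. Its ratio of 3' to 5' signal was 3.08 for Gapdh, against 0.85 on replicate 2 and 0.81 on replicate 3, and 6.47 for Actb, against 1.95 and 1.83. A high ratio means that transcripts were read mainly near their 3' end. The median absolute difference in log2 signal over detected genes was 0.30 between replicates 1 and 2, 0.34 between replicates 1 and 3, and 0.18 between replicates 2 and 3. The median log2 signal of all probe sets was 6.55, 6.78 and 6.78 on replicates 1, 2 and 3, so centring the arrays on it lowers every difference between replicate 3 and replicate 1 by 0.23. The counts and shares of the spread given at the end are for this reason set beside those of replicates 2 and 3 alone.

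Replicate 3 differed from the others in X- and Y-linked transcripts. Xist, the RNA that silences an X chromosome in female cells, had log2 signals of 14.71, 14.08 and 7.18 on replicates 1, 2 and 3. The Y-linked gene Eif2s3y, picked after its values were seen, had 2.54, 4.40 and 11.06, and Uty had 3.06, 4.64 and 8.88. Xist was thus high on replicates 1 and 2 and the Y-linked genes on replicate 3 only, while the labels make no distinction between the arrays. The 3' to 5' ratio and the sex-linked transcripts each set 1 array apart, and their part in the differences below was not tested.

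A majority of named genes were detected. In all, 11093 of 18193 genes (61%) were Present on all 3 arrays and 5176 (28.5%) were Present on none, and these shares serve as the background for every gene list below. Detected genes had a median log2 signal of 9.53, with 90% of them between 6.74 and 12.76 and the highest at 15.83. Genes with no Present call had a median of 4.16, and 95% of them lay under 6.69, with the highest at 9.57. As a check on the calls, 36 genes listed as markers of liver, testis or photoreceptors were counted. Their expression elsewhere was not examined, so a Present call on one of them need not be false. Only Sag and Gnat2, both photoreceptor genes, were Present on all 3 arrays (5.56%), and 31 were Present on none, among them Alb, which encodes the plasma albumin made in liver, at 4.62, 6.01 and 5.46.

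**Figure D1:**
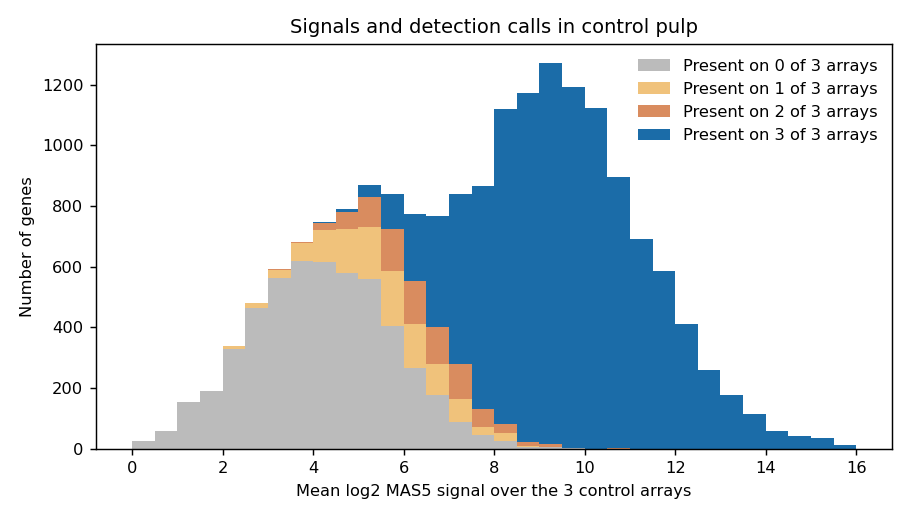
Number of genes (y axis) by mean log2 MAS5 signal over the 3 control arrays (x axis), stacked by the number of arrays with a Present call. The 11093 genes Present on all 3 arrays centre on 9.53 and the 5176 genes with no Present call centre on 4.16.

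The highest signals came mostly from the machinery of translation, with a few genes of secreted matrix, of mitochondrial respiration and of enamel among them. Of the 30 genes with the highest mean, 19 encode ribosomal proteins, led by Rps29 at 16.08, 15.67 and 15.75 and Rpl38 at 15.99, 15.68 and 15.82. Sparc, a secreted glycoprotein that binds collagen and calcium, ranked 3rd at 15.97, 15.74 and 15.77. Col1a2, which encodes the second chain of type I collagen, the main protein of dentin, ranked 9th at 15.72, 15.47 and 15.58. Tpt1 and Eef1a1, both factors linked to translation, reached 15.71 ± 0.19 and 15.58 ± 0.19 (mean ± SD, n = 3). The highest and the lowest of these 30 means differed by 0.57 log2 units and single genes had SDs of 0.01 to 0.39, so neighbours in this order do not differ beyond their spread.

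Within the 30, replicate 1 was highest for 27 genes, against 43.4% of all detected genes. Replicate 2 was lowest for 28, and the share of all detected genes lowest there was not counted. The 19 ribosomal genes weigh on both counts, as 34 of 42 detected ribosomal protein genes were highest on replicate 1. The mitochondrial gene ND5, a subunit of respiratory complex I, ran against the others with 15.13, 15.69 and 15.87, lowest on replicate 1. Membership of the 30 depends on the choice of probe set: without those of suffix _x_at and _s_at, whose probes can match several transcripts, 18 of the 30 genes stayed. Ribosomal proteins then held 14 places, Sparc led, Amelx and Col1a2 stayed, and Dspp, Ambn, Lum, Dcn and Col1a1 entered. Together the 30 genes carried between 6.19% and 6.98% of the summed signal of all detected genes on an array.

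**Figure D2:**
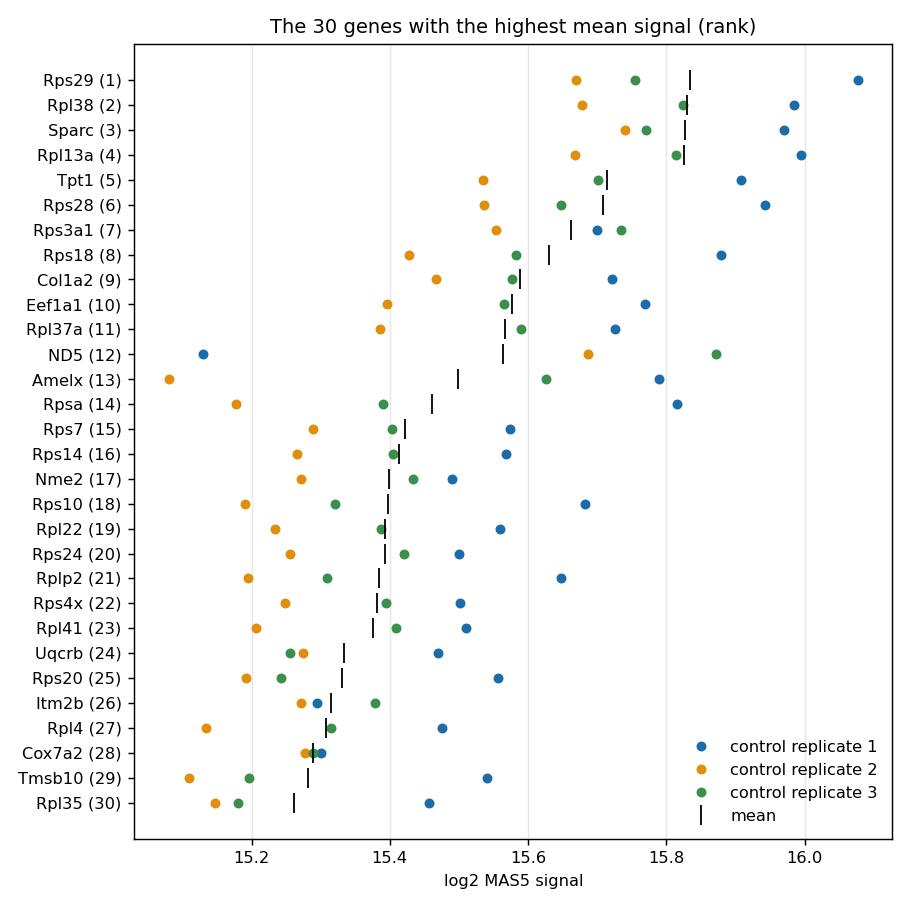
log2 MAS5 signal (x axis) of the 30 genes with the highest mean (y axis, rank in brackets) on each of the 3 control arrays, coloured points, with the mean as a vertical tick. The 30 means lie between 15.26 and 15.83, and replicate 1 gives the highest signal for 27 of the genes, against 43.4% of all detected genes.

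Among all detected genes the ribosomal proteins had a median percentile of 99.7 (42 of 44 detected), with 35 of them in the highest 100. Translation factors stood at 98.6 (19 of 19), actin and tubulin genes at 98.1 (18 of 18) and subunits of the respiratory chain and ATP synthase at 97.4 (42 of 42). Among these, Uqcrb of complex III had 15.47, 15.27 and 15.25 and Cox7a2 of complex IV had 15.30, 15.28 and 15.29, the latter with nearly equal signals. Genes of glycolysis and the hypoxia response had a median percentile of 84.8, led by Aldoa, a glycolytic aldolase, at 13.13 ± 0.23. All these lists exceeded the 61% of genes detected in all.

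The secretory apparatus was also high. All 23 genes of folding and export in the endoplasmic reticulum were detected, with a median percentile of 95. Ppib, a prolyl isomerase that acts on procollagen, had 14.73, 14.37 and 14.33, and the chaperone Hspa5 had 14.45, 14.10 and 13.91, both highest on replicate 1. Of 15 collagen-processing enzymes and chaperones 13 were detected, with a median percentile of 83.7. Pcolce, which enhances the cleavage of procollagen ends, reached 14.53 ± 0.34. Serpinh1, the collagen chaperone, reached 14.08 ± 0.39, and Plod2, a lysyl hydroxylase, 13.37 ± 0.39. P4ha3 and Pcolce2 had no Present call.

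Genes of odontoblasts and dentin were detected for 20 of 21 members, with a median percentile of 88.2, and Cpne7 alone had no Present call. Dspp, the precursor of dentin sialoprotein and dentin phosphoprotein and a product characteristic of odontoblasts, ranked 31st with 15.32, 15.001 and 15.32. Col1a1, the first chain of type I collagen, had 15.41, 15.12 and 14.78. Phex, a membrane peptidase needed for phosphate balance and mineralisation, had 15.31, 14.95 and 14.79. The last pair were highest on replicate 1 and lowest on replicate 3, whereas Dspp was lowest on replicate 2. Dmp1, an acidic matrix protein of dentin and bone, had 14.34, 13.92 and 13.79 with its highest probe set, and its other 2 detected probe sets averaged 12.53 and 11.07. None of the 20 detected members had a range over 1 log2 unit, against 9.63% of all detected genes and 5.23% of the 2773 of highest signal. At these shares a list of 20 would hold few.

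The matrix of pulp fibroblasts was as prominent, with 32 of 35 genes detected and a median percentile of 91.6. Lum and Dcn, small proteoglycans that bind collagen fibrils, had 15.39, 15.05 and 15.08, and 14.92, 15.08 and 15.14. Col5a2 of type V collagen, which sets fibril diameter, reached 14.99 ± 0.25. The proteoglycan Bgn reached 14.64 ± 0.18 and Lox, which cross-links collagen, 14.55 ± 0.24. Col3a1, a fibrillar collagen of soft tissue, varied more, with 14.67, 13.65 and 13.97. Tnn and Mfap4 had no Present call.

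Genes of enamel formation were among the highest signals of tissue labelled as pulp, and bulk RNA does not tell which cells made these transcripts. The 6 genes on the array that were listed here as secretory-stage enamel were all detected, with a median percentile of 96.8. Of these, Adgrf4 and Fam83h lay lower, at percentiles of 62.8 and 18.0. Amelx, which encodes amelogenin, the main protein of forming enamel, ranked 13th with 15.79, 15.08 and 15.63, and its second probe set had 15.48, 14.96 and 15.40. Ambn, or ameloblastin, had 15.53, 14.41 and 15.34. The protease Mmp20 that trims both had 14.18, 14.11 and 13.67, and Enam, or enamelin, 13.05, 12.37 and 12.82. Amelx, Ambn and Enam were lowest on replicate 2 with both others above it, an order that Mmp20 did not share. Transcripts of maturation-stage ameloblasts were lower: 5 of 6 genes were detected at a median percentile of 28.1, led by the protease Klk4 with 9.58, 10.46 and 10.41, and Slc24a4, an ion exchanger, had no Present call.

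Genes of the wider dental epithelium were detected for 24 of 31 members, at a median percentile of 75.2. Shh, the Hedgehog ligand that this epithelium secretes, had 13.93, 14.22 and 14.60. A second Shh probe set, Present on 2 arrays, was far lower at 6.14, 8.02 and 8.75. The basal keratins Krt14 and Krt5 had 12.68, 13.25 and 13.66, and 11.62, 12.52 and 13.03. Dsp, or desmoplakin, which anchors keratin at desmosomes, had 11.79, 12.56 and 13.12. All 4 were lowest on replicate 1 and highest on replicate 3. Perp, a desmosomal membrane protein, and Sp6, a transcription factor of ameloblasts, were level, with means of 13.23 ± 0.07 and 12.75 ± 0.05. Krt19 and Edar had no Present call. The summed signal of the 31 genes was 67099, 87608 and 116713 on replicates 1, 2 and 3. Bulk RNA does not tell more cells of a type from more RNA per cell.

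The promoters of 3 of these genes are shown because they have some of the highest signals among products of the mineralising cells on each side of the enamel and dentin border: amelogenin and ameloblastin on the epithelial side, and the second chain of type I collagen on the mesenchymal side. Each window runs from 250 bases before to 50 bases after the annotated start, is taken from RefSeq on GRCm38.p6 and is written 5′ to 3′ on the strand of its gene. Capitals mark matches of TATAAA or CCAAT or GGGCGG on either strand, where ATTGG is CCAAT on the opposite strand. In Amelx the TATAAA match overlaps an ATTGG match. The Amelx window is chrX:169187160-169187459 on the minus strand, that of Ambn is chr5:88455741-88456040 on the plus strand and that of Col1a2 is chr6:4505368-4505667 on the plus strand.
Amelx: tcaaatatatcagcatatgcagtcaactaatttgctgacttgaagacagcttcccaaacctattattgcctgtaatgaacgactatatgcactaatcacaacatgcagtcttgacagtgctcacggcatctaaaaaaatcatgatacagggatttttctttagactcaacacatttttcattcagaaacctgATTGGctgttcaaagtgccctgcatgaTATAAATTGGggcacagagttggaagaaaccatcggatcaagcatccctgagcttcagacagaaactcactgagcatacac
Ambn: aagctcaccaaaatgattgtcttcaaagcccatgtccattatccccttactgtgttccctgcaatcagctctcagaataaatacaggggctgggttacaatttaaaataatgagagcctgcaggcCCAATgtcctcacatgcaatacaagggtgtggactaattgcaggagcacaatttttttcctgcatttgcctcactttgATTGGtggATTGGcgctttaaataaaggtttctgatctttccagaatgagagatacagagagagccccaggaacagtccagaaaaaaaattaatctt
Col1a2: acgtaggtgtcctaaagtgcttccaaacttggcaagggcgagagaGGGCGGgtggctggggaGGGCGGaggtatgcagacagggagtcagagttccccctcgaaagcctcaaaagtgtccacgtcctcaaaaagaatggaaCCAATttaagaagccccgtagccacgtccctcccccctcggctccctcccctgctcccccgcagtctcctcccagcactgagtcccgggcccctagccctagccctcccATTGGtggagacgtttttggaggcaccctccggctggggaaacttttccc
The TATAAA of Amelx begins 31 bases before the start, and its ATTGG matches begin 58 and 26 bases before it. Ambn holds no TATAAA and has ATTGG matches 47 and 39 bases before the start. Col1a2 holds GGGCGG 205 and 188 bases before the start and CCAAT 109 bases before it. A match is a description of the letters and does not show that a factor binds there.

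Across all 32851 promoter windows in the table, TATAAA on either strand occurred in 13.6%, GGGCGG in 35.7% and CCAAT in 37.4%. Windows of genes Present on all 3 arrays held TATAAA in 7.26% and GGGCGG in 63.1%, and those of genes with no Present call in 15.2% and 29.4%. A gene can have several windows or none, and the 99 windows of the highest 100 genes came from 76 genes. They held TATAAA in 11.1% (95% Wilson interval 6.32 to 18.8, counting error only) and GGGCGG in 58.6% (48.7 to 67.8). These intervals treat windows as independent, which windows of the same gene are not. CCAAT hardly differed between detected genes (37.4%), genes with no Present call (38%) and the highest 100 (37.4%). A motif that many homeodomains recognise, TAATTA on either strand, occurred in 2.67% of windows of detected genes and in 5.29% of those with no Present call. The core that Runx factors recognise is TGTGGT, and it occurred in 12.2% and 17.2%. The ratio of observed to expected CpG, low where CpG sites have been lost, had a median of 0.76 in detected genes, 0.30 in those with no Present call and 0.93 in the 43 windows of ribosomal protein genes. The enamel genes lay at the other end: their 11 windows had a median of 0.25, and none of them held GGGCGG, 3 held TATAAA and 6 held CCAAT. Of the 48 windows of dentin and pulp matrix genes 24 held GGGCGG, and their median was 0.38. A TATAAA on the strand of the gene that begins 25 to 35 bases before the start, a window set after the values were seen, occurred in 1.033% of windows of detected genes, 4.30% of those with no Present call and 1.75% of all windows. Among the 298 windows of the highest 300 genes, which came from 243 genes, it occurred in 4 (1.34%), those of Amelx, Rpl22l1, Vim and Ckb.

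**Figure D3:**
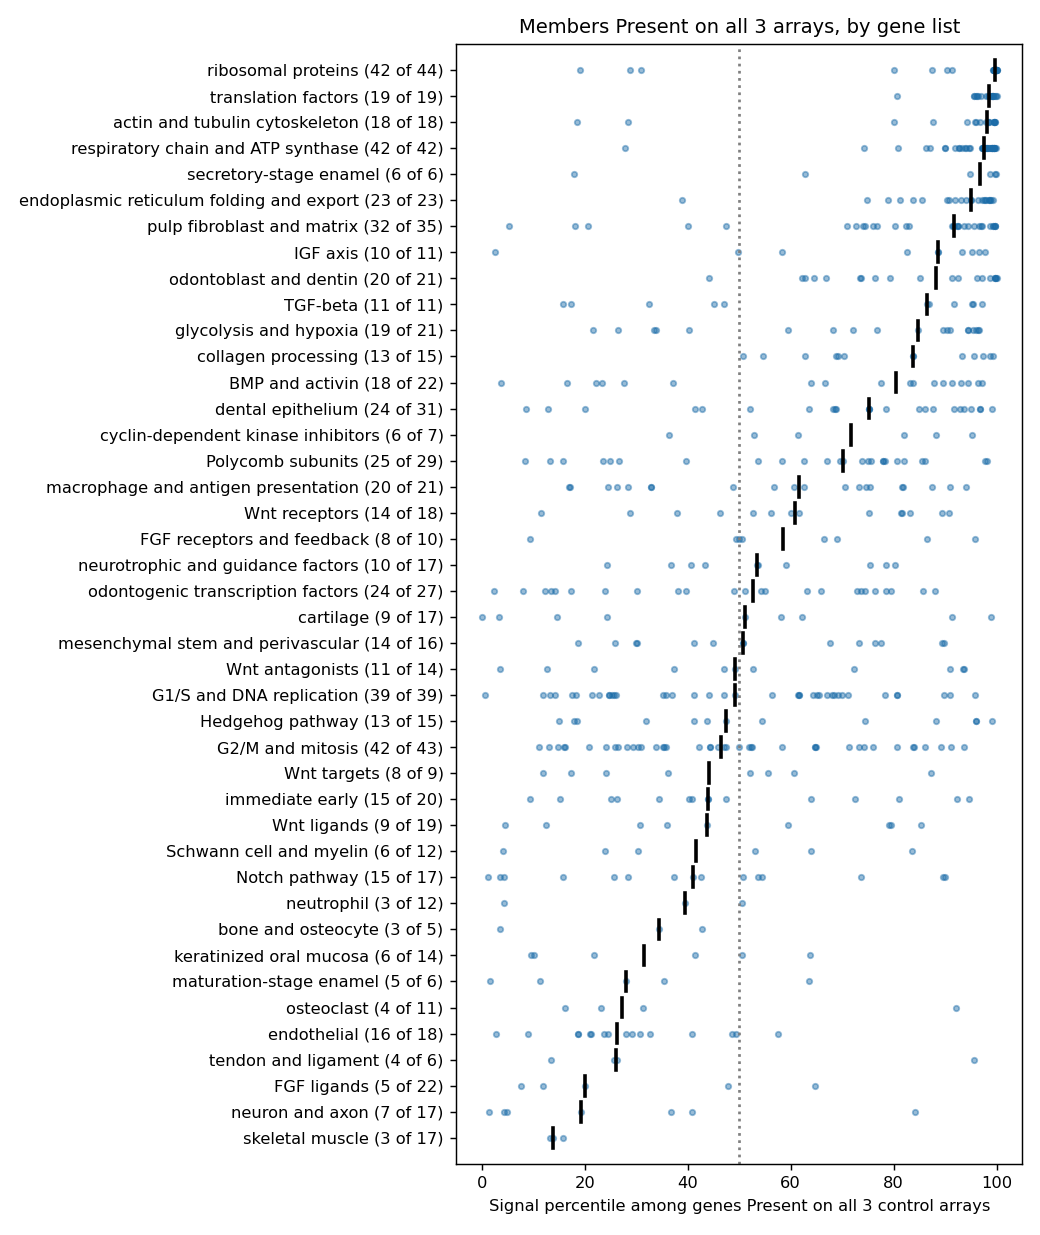
Signal percentile among genes Present on all 3 control arrays (x axis) for each gene list with at least 3 such members (y axis, detected members of those on the array in brackets). Points are members, black bars are list medians and the dotted line at 50 is the median of all detected genes. Translation, respiration, secretory and matrix lists lie above 80, and endothelial, neuronal and muscle lists under 30.

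Cells of the vessel wall, macrophages and nerve were recorded at lower signals. Of 18 endothelial genes 16 were detected, at a median percentile of 26.2. Plvap, a protein of fenestrated vessels, reached 9.87 ± 0.18, and Emcn, or endomucin, had 8.20, 10.35 and 9.93, low on replicate 1. Perivascular and stem cell genes had a median percentile of 50.7 (14 of 16). Acta2, the smooth muscle actin, had 12.02, 11.72 and 12.22 and Rgs5, a pericyte gene, 12.04, 11.91 and 11.89, while the contractile genes Myh11 and Cnn1 of mature smooth muscle had no Present call. Thy1, a surface marker of mesenchymal stem cells, had 9.42, 9.47 and 9.05.

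Macrophage genes were detected for 20 of 21 members, at a median percentile of 61.6. Csf1r, the receptor for the growth factor of macrophages, had 12.87, 12.50 and 12.31, and the signalling adaptor Tyrobp had 12.50, 12.01 and 11.89, both highest on replicate 1 and lowest on replicate 3. The complement genes C1qa, C1qb and C1qc, products of resident macrophages, reached 11.25 ± 0.26, 11.23 ± 0.09 and 10.79 ± 0.25. Lymphocytes left little signal: of 10 genes of T and NK cells none was Present on all 3 arrays, with Cd3d, Cd3e, Cd3g and Cd4 Present on none, and of 9 B cell genes only Ighm was detected. Of 12 neutrophil genes S100a8, S100a9 and Ngp were detected. S100a8 and S100a9, the subunits of calprotectin, had 10.68, 9.55 and 8.44, and 10.03, 9.14 and 8.003. Both were highest on replicate 1 and lowest on replicate 3, while Elane, Mpo, Camp, Ltf and Csf3r had no Present call.

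Of the 6 genes of red cell precursors on the array none was Present on all 3 arrays. Alas2, the first enzyme of erythroid haem synthesis, was Present on 2 of them, with 6.40, 8.89 and 8.96, and so was Slc4a1, the red cell anion exchanger, with 4.86, 7.77 and 7.56. Epb42 also had 2 Present calls, while Hemgn, Rhag and the probe set of Hba-a1 alone had none. Adult globin transcripts were nevertheless Present in other probe sets. The highest of these match several globin genes at once, stand outside the gene ranking and were picked after their values were seen. The probe set shared by the adult beta-globin genes Hbb-bt, Hbb-bs, Hbb-b2 and Hbb-b1 had 13.35, 15.03 and 15.19. The highest probe set shared by Hba-a1 and Hba-a2 had 14.31, 15.18 and 15.33. Both were lowest on replicate 1, as were the other probe sets shared by Hba-a1 and Hba-a2. A Present probe set of Hba-a2 alone was also lowest there, with 7.53, 8.52 and 8.40. One of Hbb-b2 alone was instead highest on replicate 1, with 8.90, 8.61 and 8.16. The embryonic genes Hbb-y, Hbb-bh1 and Hba-x had no Present call.

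In the nerve lists, 6 of 12 Schwann cell genes and 7 of 17 neuronal genes were detected. Pmp22, a protein of peripheral myelin that other cells also express, reached 11.40 ± 0.25, and Mbp, the myelin basic protein, had 9.86, 8.57 and 10.56. Sox10, the factor that specifies Schwann cells, had no Present call. Isl1, a transcription factor of sensory neurons that is also made in dental epithelium, had 10.74, 11.60 and 12.00. Tac1, the precursor of substance P, had 9.89, 9.09 and 8.38, lowest where Isl1 was highest. The neurofilaments Nefm and Nefh and the channels Scn9a and Trpv1 of pain fibres had no Present call.

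Tissues that lie near the tooth were checked next. In bone and osteocyte genes 3 of 5 were detected: Ifitm5 at 9.21 ± 0.54, Pth1r at 8.83 ± 0.55 and Sost, an osteocyte product, at 6.53 ± 0.41. Mepe had no Present call. Osteoclast genes were detected for 4 of 11: Ctsk, or cathepsin K, had 12.29, 12.41 and 12.11, and Nfatc1, Acp5 and Mmp9 reached means of 8.69, 8.26 and 7.85. Calcr, Oscar, Dcstamp, Ocstamp and Tnfrsf11a had no Present call. The cartilage list gave 9 of 17. Col11a1 and Col11a2, chains of type XI collagen, had 14.40, 14.31 and 14.02, and 12.88, 12.32 and 11.29. Hapln1, Col9a3 and Sox9 reached means of 10.08, 9.89 and 9.57. Col2a1 and Acan, the collagen and proteoglycan that define cartilage, had no Present call. Muscle genes were detected for 3 of 17, none above a percentile of 15.9. Salivary genes were detected for 0 of 5 and genes of keratinised oral mucosa for 6 of 14. In the mucosa list Dmkn, Krt10 and Sbsn had the highest means, at 10.16, 9.56 and 9.15, while Krt13 and Flg had no Present call. All of these shares lay under the 61% of genes detected in all, that of bone only just. Tendon and ligament genes lay above it, with 4 of 6 detected (66.7%). Fmod, or fibromodulin, a collagen-binding proteoglycan, had 13.43, 12.81 and 12.42. Tnmd, or tenomodulin, a membrane protein of tendon, had 8.46, 8.45 and 8.27 and the tendon homeobox gene Mkx 9.19, 8.11 and 7.99, while Kera had no Present call. All 4 detected genes of the list were highest on replicate 1 and lowest on replicate 3. Fat cell genes were detected for 1 of 6, melanocyte genes for 2 of 6, mast cell genes for 1 of 7 and immediate early genes, which cells induce within minutes of a stimulus, for 15 of 20.

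Regulators of tooth identity were detected for 24 of 27 members, at a median percentile of 52.6. The homeobox genes Msx1 and Msx2, both required for tooth formation, had 12.20, 11.79 and 11.37, and 11.57, 11.47 and 11.71. Dlx5, Dlx2 and Dlx3, which pattern the jaw and its teeth, reached 11.08 ± 0.27, 10.997 ± 0.38 and 10.86 ± 0.29, and Lhx8, a LIM homeobox gene of jaw mesenchyme, 10.73 ± 0.39. Prrx1, a homeobox gene of craniofacial mesenchyme, had 9.75, 9.88 and 9.52. Lhx6 and Pax9, needed at the early tooth stages, were near the bottom of the detected range at 7.63 ± 0.52 and 7.12 ± 0.30. Only 1 of 2 probe sets of Lhx6 and 1 of 3 of Pax9 was detected. Barx1, which marks the molar field, had no Present call, with 6.33, 7.73 and 7.97, and neither had Alx4 or Tfap2b. The Hox clusters were mostly undetected: 30 of 33 genes had no Present call, and only Hoxd8 was Present on all 3 arrays, at 6.82, 7.52 and 7.002.

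Among 29 Polycomb subunits 25 were detected, at a median percentile of 70.1. Ring1 had no Present call, with 6.33, 6.04 and 2.997 on its only probe set. Where that probe set lies relative to the Ring1a null allele is not known here, so the call does not by itself check the genotype. Rnf2 had 11.39, 11.25 and 11.12, and a second detected probe set of the gene had 9.99, 10.37 and 10.22. Of the 5 probe sets of Rnf2, 3 had no Present call. The histone-binding proteins Rbbp4 and Rbbp7, shared with other complexes, had the highest signals of the list at 13.74 ± 0.25 and 13.56 ± 0.09. Bmi1 of complex 1 reached 11.62 ± 0.21 and Suz12 of complex 2 11.57 ± 0.11. Pcgf1 had no Present call. No detected Polycomb gene had a range over 1 log2 unit, against 9.63% of all detected genes, a share at which a list of 25 would hold few.

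Of the secreted signals, the Hedgehog pathway was represented at each level. Besides the ligand Shh, Gas1, a co-receptor, had 13.31, 13.29 and 12.41, and Ptch1, the receptor and transcriptional target, 13.04, 12.87 and 12.99. Smo, the transducer, reached 11.81 ± 0.12. Gli3 and Gli2, the factors at the end of the pathway, reached 10.73 ± 0.07 and 9.73 ± 0.29, and Gli1, a target that marks stem cells of the incisor, had 8.93, 9.00 and 9.47. Shh and Gli1 were highest on replicate 3. Ptch1 was nearly level with this probe set, whereas a second detected probe set, at 7.94, 8.43 and 8.94, was also highest on replicate 3. In all 13 of 15 genes were detected.

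Of 19 Wnt ligands 9 were detected. Wnt5a, which acts mostly without beta-catenin, had 11.92, 11.54 and 11.20, Wnt10a, whose loss in humans causes missing teeth, 10.92, 11.26 and 11.06, and Wnt6 11.28, 11.05 and 10.82. Of their receptors 14 of 18 were detected, with Lgr4 at 12.10 ± 0.17 and Fzd3 at 11.92 ± 0.10, and Lrp5 had no Present call. The secreted antagonists Wif1 and Sfrp2 reached 12.49 ± 0.28 and 12.45 ± 0.30. Sostdc1, an antagonist of Wnt and BMP made by dental epithelium, had 11.55, 12.16 and 12.69, lowest on replicate 1 and highest on replicate 3 like the keratins. Ctnnb1, or beta-catenin, ranked 46th at 15.02 ± 0.07. Of the targets, Ccnd1 had 11.35, 11.76 and 12.08 and Axin2, the general feedback gene of the pathway, 9.12, 8.72 and 8.86.

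Only 5 of 22 FGF ligands were detected, against 61% of all genes, with Fgf13, an intracellular member of the family, at 10.20 ± 0.86, Fgf1 at 9.43 ± 0.09 and Fgf9, an epithelial ligand, at 8.08 ± 0.54. Fgf3, a mesenchymal ligand of the incisor, had 7.68, 7.09 and 6.52, and its companion Fgf10 had no Present call. The receptors and feedback genes were detected for 8 of 10, with Fgfr1 at 12.92 ± 0.34. Members of the BMP and activin list were detected for 18 of 22, at a median percentile of 80.4: Id3 and Id1, targets of BMP, reached 13.30 ± 0.46 and 12.42 ± 0.22, and Bmp2 12.63 ± 0.32. The antagonist Nog had no Present call. All 11 TGF-beta genes were detected, at a median percentile of 86.5. Ltbp3, which binds latent TGF-beta, had 13.74, 13.31 and 13.02, Tgfbi, a matrix protein induced by it, 13.65, 12.75 and 12.16, and the ligand Tgfb3 13.15, 13.02 and 12.32. All were lowest on replicate 3.

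The IGF list was detected for 10 of 11 genes at a median percentile of 88.6, led by the binding proteins Igfbp5 at 13.53 ± 0.31 and Igfbp4 at 13.17 ± 0.30 and by the ligand Igf2 at 12.81 ± 0.40. Notch genes were detected for 15 of 17 at a median percentile of 41.1. The receptor Notch2 and the target Hey1 had the highest signals, with 12.24, 11.56 and 12.17, and 12.65, 11.76 and 11.48. Factors that guide or feed nerves gave 10 of 17, with Sema3e, a repellent, at 11.12 ± 0.60 and the trophic factors Bdnf, Gdnf and Artn not Present. Outside all lists the highest genes included Nme2, a nucleoside diphosphate kinase, at 15.40 ± 0.11. Itm2b, an integral membrane protein, reached 15.31 ± 0.06, Gja1, the gap junction protein connexin 43, 14.88 ± 0.11 and Serpinf1, a secreted serpin of bone and tooth matrix, 14.85 ± 0.29.

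Transcripts of dividing cells were detected almost without exception. All 39 genes of the G1/S transition and DNA replication were detected, at a median percentile of 49.3, and 42 of 43 genes of G2 and mitosis, at 46.5, Gtse1 being the exception. Pcna, the sliding clamp of DNA polymerase, had 12.10, 13.30 and 13.40, and Mcm7 of the replicative helicase 11.98, 12.01 and 12.33. Mki67, the proliferation marker Ki-67, had 11.08, 11.66 and 12.12. Cks2, a subunit of cyclin-dependent kinases, reached 12.49 ± 0.11, and the mitotic activator Cdc20 was level at 11.41 ± 0.02. Of the kinase inhibitors 6 of 7 were detected. Cdkn1a, or p21, had 13.26, 12.72 and 12.48, highest on the array where Mki67 was lowest. Cdkn1c, or p57, reached 11.81 ± 0.17, and Cdkn2a, a gene that Polycomb complexes repress, had no Present call at 2.12, 5.58 and 5.85.

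Control arrays differed from each other by more for some groups of genes than for others. The median SD of a detected gene was 0.23 log2 units, and 1068 genes (9.63%) had a range over 1 log2 unit, which is 2-fold. Between replicates 2 and 3 alone 105 of the same genes (0.947%) differed by over 1 log2 unit, between replicates 1 and 2 508 and between replicates 1 and 3 855, and the median SD over replicates 2 and 3 was 0.13. Fewer arrays give fewer such genes by construction. The share fell with signal, from 17.3% of the 2774 detected genes of lowest signal to 5.23% of the 2773 of highest signal. Between replicates 2 and 3 alone these shares were 2.74% and 0.252%. Of the 15 genes with the largest SD, 7 were lowest on replicate 1, against 38.1% of all detected genes. A further 7 were highest there, against 43.4%, so both counts lay near the shares of all detected genes. For 11 of the 15 replicates 2 and 3 lay within 1 log2 unit, and these genes were picked for their spread. Xist had the largest SD, 4.18. Next came Arsk, a lysosomal sulfatase, with 9.26, 6.14 and 8.70, Ecrg4, a secreted peptide precursor, with 8.25, 5.44 and 5.75, and Fdps, an enzyme of isoprenoid synthesis, with 8.12, 10.59 and 10.61. Irx1 and Irx2, neighbouring homeobox genes, had 6.46, 8.20 and 8.94, and 6.24, 7.71 and 8.60, lowest on replicate 1 and highest on replicate 3. Among the smallest SDs were those of Tbcc, a tubulin folding cofactor, at 9.40 on every array, and of Pdhb, a subunit of pyruvate dehydrogenase, at 12.43 ± 0.01.

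**Figure D4:**
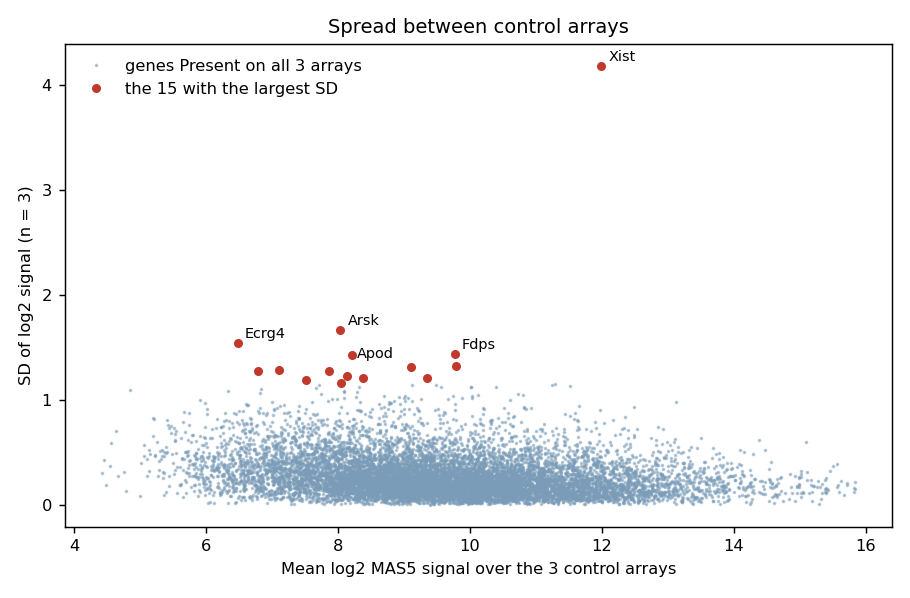
SD of log2 MAS5 signal over the 3 control arrays (y axis) against the mean (x axis) for each gene Present on all 3, with the 15 largest SDs in red and 5 of them named. Xist stands apart at 4.18, and the median of all genes is 0.23.

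Among the lists with at least 6 detected members, the dental epithelium had the largest median deviation of an array. By the median SD of members it came after the neuronal (0.64) and Schwann cell (0.58) lists, with 0.57. Its median deviation from the mean of the arrays was -0.56 on replicate 1, 0.00 on replicate 2 and 0.59 on replicate 3. Of its 24 detected genes, 17 had a range over 1 log2 unit, against 9.63% of all detected genes, and 20 were lowest on replicate 1, against 38.1%. Without replicate 1 the first count was 0 of 24, against 0.947%. Replicates 2 and 3 had like 3' to 5' ratios but differed in Xist and the Y-linked genes, and the part of either was not tested. All 24 genes were higher on replicate 3 than on replicate 2, against 52.6% of all detected genes, with a median difference of 0.56. That difference was as large after quantile normalization or median centring, at 0.55 under each. The difference between replicates 3 and 1 was 1.14 as deposited and 0.90 after median centring.

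Genes of cell division lay in the same order. Of 42 detected G2 and mitosis genes, 38 were lowest on replicate 1, against 38.1% of all detected genes. Of the same 42, 40 were higher on replicate 3 than on replicate 2, against 52.6%, with a median difference of 0.28. Of 39 genes of G1/S and replication, 30 were lowest on replicate 1 and 30 were higher on replicate 3 than on replicate 2, with a median difference of 0.20. Ribosomal protein genes shared the second contrast but not the first: 41 of 42 were higher on replicate 3 than on replicate 2, by a median of 0.16, and 34 of 42 were highest on replicate 1, against 43.4% of detected genes. The ribosomal difference between replicates 3 and 2 shrank to 0.05 under quantile normalization.

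Several lists of matrix, secretion, immune cells and endothelium lay the other way between replicates 2 and 3. Of all detected genes, 52.6% were higher on replicate 3. No collagen-processing gene of 13 was higher on replicate 3, with a median difference of -0.41, and this was true of 3 of 23 genes of the endoplasmic reticulum (-0.17), 12 of 32 of the pulp matrix (-0.18), 5 of 20 of macrophages (-0.20) and 2 of 16 of endothelium (-0.25). These directions were kept under quantile normalization and under median centring. Not all mesenchymal lists shared them: 6 of 14 perivascular and stem cell genes were higher on replicate 3 (-0.03), and 13 of 24 regulators of tooth identity (0.01). The summed signal of the 15 collagen-processing genes was 91177, 84219 and 60290 on replicates 1, 2 and 3, and that of the 12 neutrophil genes was 3245, 1738 and 1020. S100a8 and S100a9 carry most of the neutrophil sum on each array, 8 of the 12 genes had no Present call, and Mpo (4.84, 5.09 and 5.44) and Ltf (5.49, 5.62 and 5.88) lay in the opposite order. The summed signal of the secretory-stage enamel list, most of it from Amelx and Ambn, was 131948, 80863 and 114478, lowest on replicate 2. Of its 6 members 5 were higher on replicate 3 than on replicate 2. The members of lowest signal, Adgrf4 (9.38, 10.26 and 10.71) and Fam83h (7.58, 7.84 and 8.498), had the order of the dental epithelium, lowest on replicate 1 and highest on replicate 3. Odontoblast and dentin genes had median deviations of 0.12, -0.05 and -0.09, and 7 of 20 were higher on replicate 3 than on replicate 2.

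**Figure D5:**
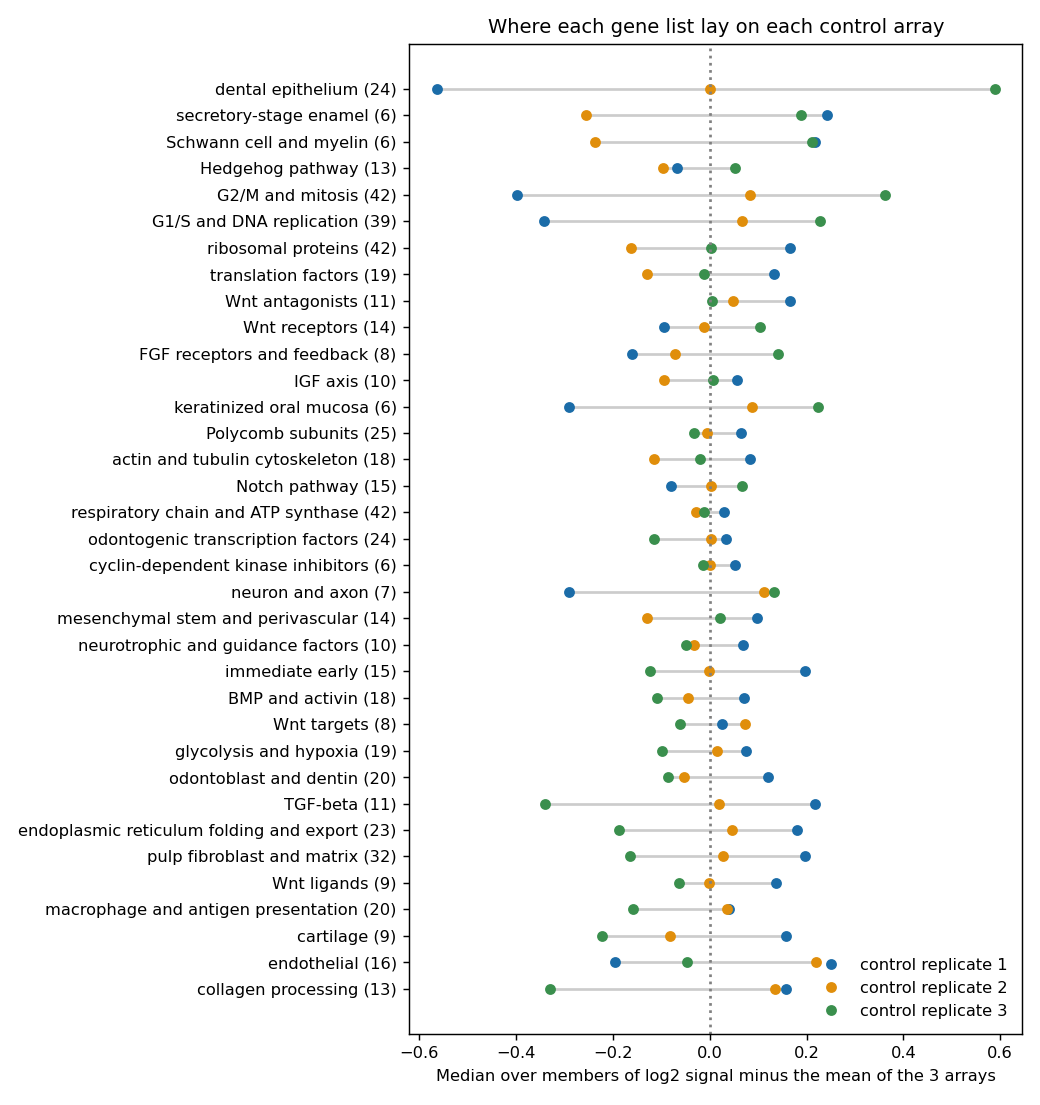
Median over detected members of the log2 signal minus the mean of the 3 control arrays (x axis) for each gene list with at least 6 detected members (y axis, number in brackets), one point per array, lists ordered by the difference between replicates 3 and 2. The dental epithelium runs from -0.56 on replicate 1 to 0.59 on replicate 3, mitosis from -0.40 to 0.36, and collagen processing lies at -0.33 on replicate 3.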

How the data were processed

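Per the labels' protocols, RNA from micro columns was cleared of DNA, turned into cDNA and amplified by a kit for small inputs, and put through further in vitro transcription before hybridisation. Each step can skew levels. MAS5 is named in the submitters' processing notes. The deposited values are linear signals (probe set intensity) that the authors had already brought to a trimmed mean of 500 per array. Detection calls came from the authors' deposited workbook, whose 3 control columns name the group and not the replicate, and 15 further sample columns stayed unused. Software versions are not given in the sources used here.

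Each signal below 1 was raised to 1 before log2 transformation, without renormalizing. Of 45101 probe sets 34958 had 1 symbol in the platform annotation, 932 several and 9211 none. Between 54.1% and 56.6% of probe sets were Present per control column. With 1 group there is no test, and the number of arrays limits the precision. Members and the 53 gene lists (901 genes on the array) were chosen with earlier results of these data known, and lists can share genes. Named were the highest 30 genes, up to 6 highest members and the undetected members of each list, the 15 largest and 10 smallest SDs, the 10 highest genes in no list and a fixed set of tooth, Polycomb and cell cycle genes. The Y-linked genes, the haemoglobin probe sets and Ckb were picked after their values were seen. Promoters are RefSeq's, GRCm38.p6. Calculations used Python 3.11.15 with pandas 2.3.3 and scipy 1.17.1, and were tested on simulated data.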

Additional observations from a re-analysis of the deposited data

How the results depend on the processing

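The 11093 genes detected became 11914 with Present calls on at least 2 arrays and 10710 without probe sets of suffix _x_at and _s_at, and 14 of 42 gene lists had a median percentile of 75 or above as deposited. Of the 30 highest genes, 18 stayed when the detected probe sets of a gene were averaged, 18 without probe sets of suffix _x_at and _s_at, and 28 to 30 when 1 array was left out. The median SD was 0.33 without the filter on Present calls, with 5624 genes over a range of 1 log2 unit. It was 0.13 to 0.24 when 1 array was left out and the probe set of each gene chosen anew from the others, with 103 to 849 such genes. Of the 24 dental epithelium genes, 17 passed that range over all arrays and 0 between replicates 2 and 3, an alternative chosen after seeing the data. Fewer arrays give smaller ranges by construction. The ribosomal difference between replicates 3 and 1 was -0.17 as deposited and -0.40 after median centring, and that of the endoplasmic reticulum genes was -0.40 and -0.64, a shift of 0.23 that the centring itself brings. No paired analysis was possible because only 1 group is described. Signals near those of undetected genes scatter widely, so low members carry the largest error.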
